A study of Mus musculus with 12 samples.

Results

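Dextran sulfate sodium (DSS) is a sulfated polysaccharide that injures the colonic epithelium when it is given in drinking water. Of the 12 arrays of the series, 6 are compared here. The 3 arrays of the DSS group and the 3 control arrays were taken by their group label. The tissue was epithelium of the distal colon and rectum, from BALB/c females. Their age is given as 5 to 7 weeks, which cannot be that on day 100, when tissue was taken. The DSS group drank DSS for 5 days of every 21, in 3 cycles from day 5, and received no azoxymethane (AOM). The labels name no agent for the control group. Tissue of both groups was taken on day 100 and scraped off with a glass slide into Trizol, so a scraping can hold mucosal cells other than epithelium. The remaining 6 arrays hold AOM epithelium (10 mg/kg weekly, 6 times) and AOM/DSS neoplasms (AOM at 12.5 mg/kg on day 1, and the same DSS cycles). They entered the fit as groups of their own and lent it their spread. Nothing in the labels ties each replicate to a mouse of its own. The p-values therefore reflect the spread among these arrays alone, part of which may be technical. The hour of collection was not stated.

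In DSS colitis the epithelial barrier is lost during each course of drinking and is rebuilt between courses by crypt cells. Mature colonocytes absorb salt, water and short-chain fatty acids, goblet cells make mucus, and enteroendocrine cells release hormones such as cholecystokinin. Neutrophils and macrophages enter the injured mucosa, and fibroblasts lay down matrix beneath the new epithelium. Most cells of the gut also run a circadian clock, a loop in which the activators Arntl and Clock switch on their own repressors and a set of output genes.

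Levels are given as log2 of the processed intensity of 1 probe per gene, relative to the 75th percentile of that array, so that a gene at 0 is as bright as that percentile. They are compared between arrays for the same gene, never between genes. The 75th percentile of intensity lay between 393 and 677 on the 6 arrays, 52.1 to 59.3% of probes were well above background, and no spot was saturated. DSS replicate 1 and control replicate 3 stood apart from the other arrays of their groups. DSS replicate 1 correlated best with control replicate 3 (r = 0.967 across genes, which are not independent replicates) and less with DSS replicates 2 and 3 (0.929 and 0.941). Control replicate 3 had r = 0.940 and 0.923 with control replicates 1 and 2. These arrays also had the highest median level of pancreatic digestive enzyme genes in their groups: the median log2 level of 18 acinar genes was 3.05 on DSS replicate 1 and 6.02 on control replicate 3, against -3.09 and -2.14 on the other DSS arrays and 1.09 and -0.83 on the other controls. The part of that tissue in the results was not tested. Whether the labels of this pair of arrays were exchanged was not tested either, and an exchange would change what each group value here means. Counts are given with and without this pair of arrays. Between the groups, all 18 acinar genes had a log2 difference (DSS minus control) below 0, with a median of -2.49, and none passed the threshold used below. Without the pair the median was -2.25 and 7 fell, against 13.2% of all genes. Leaving the pair out therefore does not remove the difference in these genes between the groups. The 3 DSS arrays were on one slide and the 3 control arrays on another, with no slide holding both. Slide and group therefore cannot be told apart directly.

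After cyclic DSS, 101 of 16445 genes differed from control, 0.614% of those tested (limma, adjusted p under 0.05 by Benjamini-Hochberg, with 3 arrays in each group). Of these, 52 were higher after DSS (0.316%) and 49 lower (0.298%), and 82 carried a gene symbol. The arrays of the 2 groups did not overlap for any of the 101, while 20.1% of all genes tested had groups that did not overlap. The median difference over all genes was -0.01 on the log2 scale. Among symbol-bearing genes the largest fitted rise was that of Khdc1a, a gene of the KH-domain family known from oocytes (5.92 log2 units), and the largest fitted falls were those of Spink5, a serine protease inhibitor best known from skin (-4.58), and Ciart, a clock repressor (-4.53). These sizes rest partly on signal near background: Khdc1a was well above it on 1 of 3 control arrays, Spink5 on 1 of 3 DSS arrays and Ciart on none, so the order of Spink5 and Ciart is not settled.

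**Figure D1:**
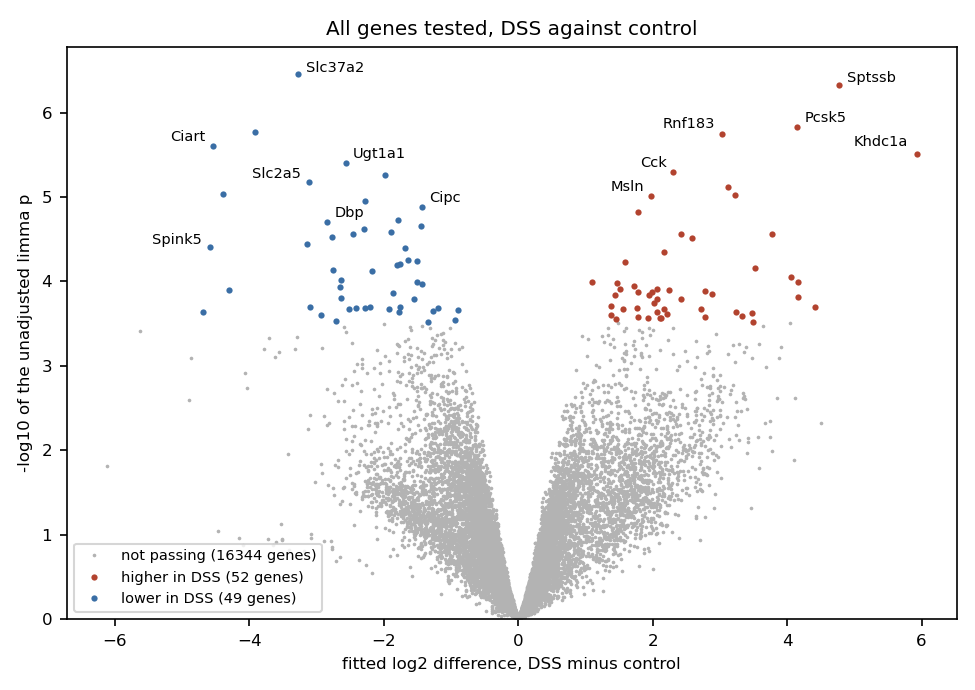
Fitted log2 difference (DSS minus control, x axis) against -log10 of the unadjusted limma p (y axis) for the 16445 genes tested. Red points are the 52 genes higher after DSS and blue points the 49 lower, at adjusted p under 0.05; grey points did not pass.

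The number of genes called depended on which array entered. Without DSS replicate 1 it was 3091, of which 1107 were higher and 1984 lower. Without control replicate 3 it was 1341, with 1059 higher and 282 lower. Without both it was 3874, or 23.6% of genes tested, with 1702 higher (10.3%) and 2172 lower (13.2%). Without DSS replicate 2, DSS replicate 3, control replicate 1 or control replicate 2 it fell to 15, 28, 31 and 29. All 101 genes were called again without DSS replicate 1, without control replicate 3 and without both, and 15, 25, 25 and 28 of them without the other arrays in that order. Called in every one of the 6 fits that left out 1 array were 11 genes: Sptssb, Khdc1a, Pcsk5, Rnf183 and Cck, which were higher, and Slc37a2, Ciart, Ugt1a1, Slc2a5, Egf and an unnamed probe, which were lower. With slide as a block, a fit that ties the groups together through the AOM and AOM/DSS arrays, 0 genes passed (limma, lowest adjusted p = 0.190), 1130 had an unadjusted p under 0.05, and 68 of the 101 were among them. In that fit all 101 kept their sign, as did 80.9% of all genes tested. The 101 were called on these same arrays, so the kept signs are no separate support. The median size of the 101 was 2.48 log2 units against 2.21 without the block, and their median standard error (SE) 0.86 against 0.36.

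**Figure D2:**
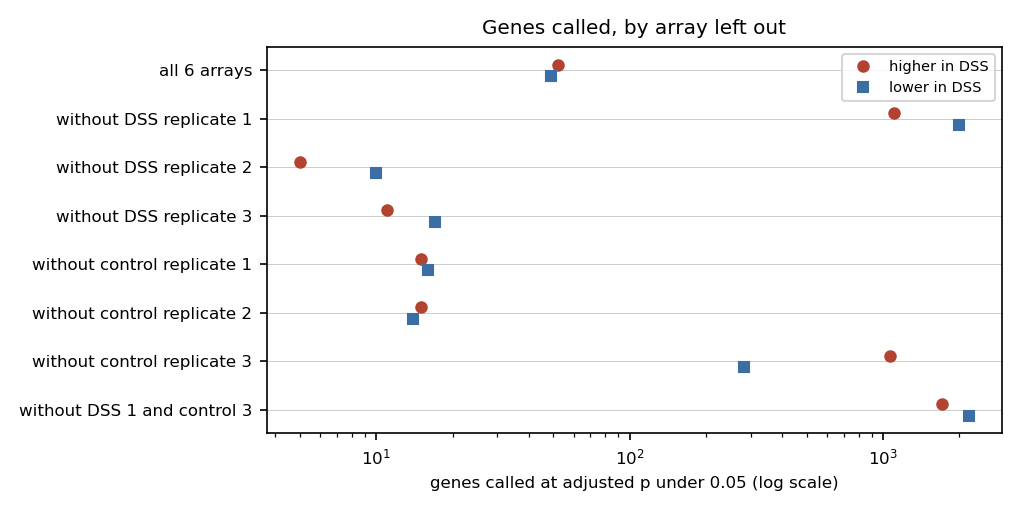
Number of genes called (x axis, log scale) with all 6 arrays, without each array in turn, and without DSS replicate 1 and control replicate 3 together (y axis). Red circles are genes higher after DSS and blue squares genes lower; the counts run from 5 higher and 10 lower without DSS replicate 2 to 1702 higher and 2172 lower without both.

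Sptssb was the gene with the smallest p among the rises. It encodes a small subunit of serine palmitoyltransferase, the enzyme that starts sphingolipid synthesis. Its log2 level was 2.16, 2.94 and 2.23 on the DSS arrays and -2.95, -1.37 and -2.64 on the controls. All 3 DSS arrays thus lay far above all 3 controls, a 27.2-fold difference (log2 difference 4.76 ± 0.45 SE, limma adjusted p = 0.00388). The AOM arrays read 0.58 to 1.57, with the one on the DSS slide at 0.61.

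Khdc1a had the largest fitted difference among the rises. Its log2 level was 0.35, 1.71 and 1.10 after DSS and -3.24, -5.27 and -6.09 in control (log2 difference 5.92 ± 0.67, limma adjusted p = 0.00734). Its neighbour in the same gene family, Khdc1c, rose as well, by at least 3.58-fold, from control arrays on none of which it was well above background. Whether the 2 probes tell these similar genes apart was not tested.

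Pcsk5, a convertase that cuts pro-proteins into active peptides, was at 0.09, 0.19 and 0.56 after DSS and at -2.95, -4.60 and -4.05 in control (log2 difference 4.15 ± 0.44, limma adjusted p = 0.00597), and was well above background on 1 of 3 control arrays. Rnf183, a membrane-bound ubiquitin ligase, was at -0.06, 0.54 and 0.60 after DSS and at -2.38, -2.26 and -3.35 in control. Both genes had DSS arrays close together and well clear of the controls. Cck, the gene of the hormone cholecystokinin, was at -0.41, 0.57 and -0.21 after DSS and at -2.36, -2.04 and -2.57 in control, a 4.95-fold rise (log2 difference 2.31 ± 0.28, limma adjusted p = 0.00897).

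The other large rises were of genes with varied roles. Afp, the serum protein alpha-fetoprotein of fetal liver, was at least 5.4-fold higher: it was at -2.05, -1.27 and -1.19 after DSS and well above background on no control array. Isx, an intestinal homeobox factor that restrains vitamin A uptake, was at least 5.19-fold higher. Tbx1, a T-box factor of pharyngeal development, rose by 2.77 log2 units, Mdfi, an inhibitor of myogenic factors, at least 2.12-fold, and Tagln3, a transgelin of neurons, by 3.47 log2 units. Wfdc18, a secreted whey acidic protein family member, was bright after DSS at 4.44, 5.16 and 4.23, against 0.63, 1.98 and -1.26 in control. The remaining genes among the 15 largest rises were Fut10, a fucosyltransferase (at least 3.66-fold), Trim29, a tripartite motif protein (at least 3.70-fold), Btbd11 (at least 1.87-fold) and 2210408I21Rik (4.05 log2 units). Another probe of 2210408I21Rik, well above background on all 6 arrays, gave a log2 difference of -0.13. "At least" marks genes dim on every array of the lower group, whose level there was set at the dimmest signal that still counts as well above background.

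The gene with the smallest p of all those tested was Slc37a2, a sugar-phosphate exchanger of the endoplasmic reticulum and one of the absorptive colonocyte genes. Its log2 level was 0.12, 0.50 and 0.04 after DSS and 3.84, 3.66 and 2.98 in control. The DSS arrays lay close together and far below every control, a 9.68-fold fall (log2 difference -3.28 ± 0.30, limma adjusted p = 0.00388). Slc2a5, the fructose transporter GLUT5, was at -2.50, -1.79 and -1.76 after DSS and at 1.06, 1.07 and 1.16 in control, an 8.66-fold fall. Ugt1a1, which conjugates bilirubin and drugs with glucuronic acid, was at least 3.35-fold lower; Ugt1a genes share their last exons, and which of their transcripts the probe reads was not tested.

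Spink5 was at -3.62, -6.23 and -3.75 after DSS and at -0.49, 0.53 and 0.12 in control, and was above background on 1 of 3 DSS arrays. Bex4, a small brain-expressed protein encoded on the X chromosome, was at least 6.67-fold lower, with -4.96, -6.26 and -6.03 after DSS against -1.57, -1.18 and -1.30 in control. On the AOM and AOM/DSS arrays its level was -2.53 to 0.11, above that of every DSS array. Hamp2, a hepcidin-like iron peptide gene, fell by 2.77 log2 units. A metal exporter and a cation pump fell too, the manganese exporter Slc30a10 (at least 3.41-fold) and the P5-type ATPase Atp13a4 (at least 2.53-fold). Hmga2, a chromatin protein of embryonic and tumour cells, fell by 3.14 log2 units, Mkx, a homeobox factor of tendon, by 2.71, and Nat8f5, an acetyltransferase, by 2.65, while Zfp462, a zinc finger protein, was at least 2.20-fold lower.

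**Figure D3:**
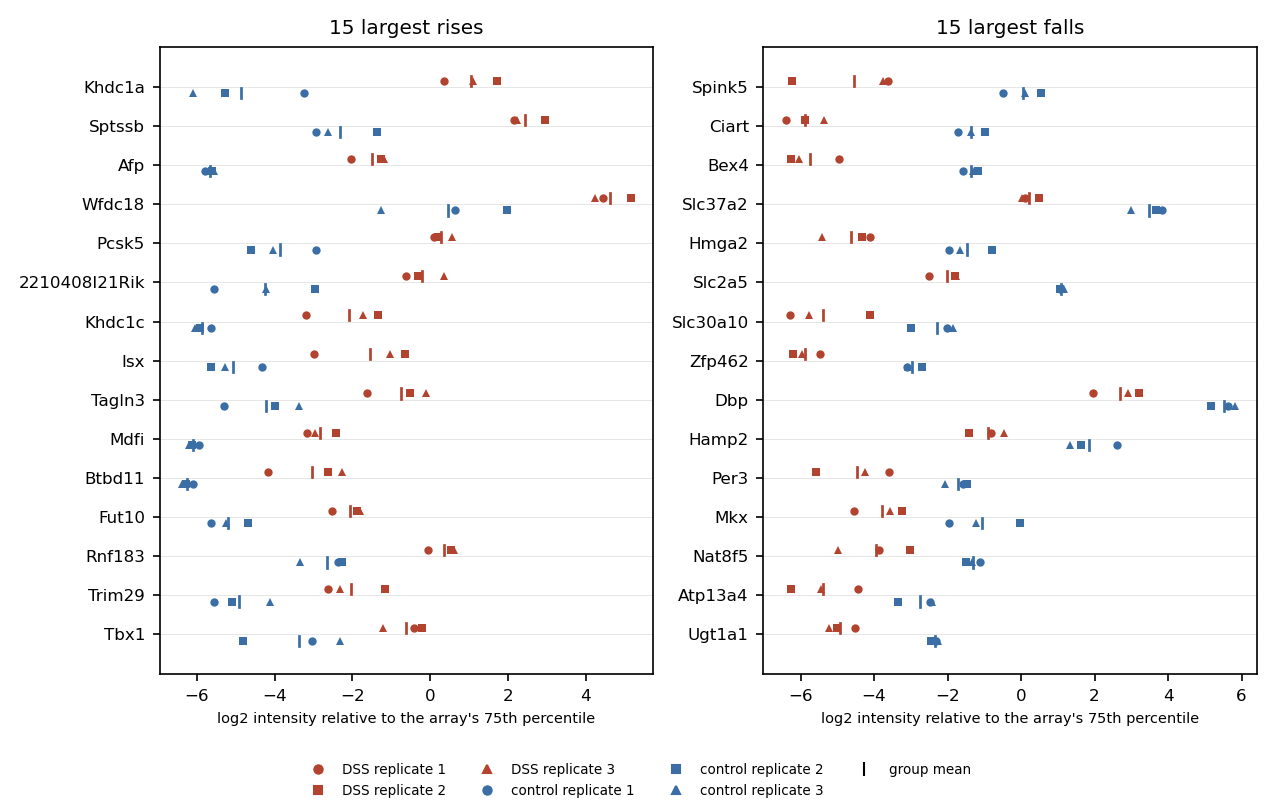
Log2 intensity relative to the array's 75th percentile (x axis) on each DSS array (red) and each control array (blue) for the 15 largest rises (left) and the 15 largest falls (right) among called genes; short bars are group means and symbols mark replicates 1 to 3. In no gene do the 2 groups overlap.

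Among the 15 largest rises, 4 kept their call in every fit without 1 array (Sptssb, Khdc1a, Pcsk5 and Rnf183), and the highest adjusted p of the others in those fits was 0.0562 to 0.200. Among the 15 largest falls, 4 did (Slc37a2, Ciart, Slc2a5 and Ugt1a1), and that of the others was 0.0524 to 0.198. The calls of the others ended without one or more of DSS replicates 2 and 3 and control replicates 1 and 2. With the filter that asks for signal well above background on all 6 arrays, 2210408I21Rik is represented by another of its probes, and its log2 difference was then -0.13.

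Clock genes formed the list with the most falls. All lists were chosen with earlier results of these data known, so this rank and the shares below are no independent test. Of 16 circadian clock genes tested, 4 fell, none rose and 12 did not pass, where 0.614% of all genes tested passed in either direction. Their median log2 difference was -1.11, against -0.01 over all genes, and in 13 of 16 the groups did not overlap, as in 20.1% of all genes. Ciart, a repressor of the Arntl and Clock pair, was at -6.40, -5.88 and -5.37 after DSS and at -1.72, -0.98 and -1.35 in control. It was well above background on every control array and on no DSS array, and was at least 6.67-fold lower (fitted log2 difference -4.53 ± 0.50, limma adjusted p = 0.00675). Dbp, a transcription factor that carries clock output, was bright in both groups: 1.96, 3.20 and 2.90 after DSS and 5.62, 5.17 and 5.81 in control, a 7.19-fold fall (log2 difference -2.85 ± 0.39, limma adjusted p = 0.0161).

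Per3, one of the period genes, was at -3.60, -5.57 and -4.25 after DSS and at -1.58, -1.48 and -2.08 in control (log2 difference -2.76 ± 0.45, limma adjusted p = 0.0312). Tef, a relative of Dbp, was at 1.12, 1.12 and 1.45 after DSS and at 3.16, 2.79 and 2.81 in control (log2 difference -1.69 ± 0.25, limma adjusted p = 0.0214). In both genes the control arrays were all higher than the DSS arrays, and Per3 was well above background on 1 of 3 DSS arrays. Cipc, an inhibitor of Clock that was in no list and is named after its values were seen, also fell, by 1.43 ± 0.19 log2 units (limma adjusted p = 0.0129): 2.70, 2.50 and 2.46 after DSS and 4.0, 4.18 and 3.76 in control.

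The activator Arntl, whose RNA peaks opposite to that of its targets, stood on the other side. Its log2 level was 0.62, 0.47 and 0.14 after DSS and -0.93, -1.43 and -1.23 in control, without overlap, and it missed the threshold (log2 difference 1.61 ± 0.31, limma adjusted p = 0.0521). Nfil3, a repressor that binds the same sites as Dbp and Tef, was at -0.67, 0.33 and 0.10 after DSS and at -1.36, -1.43 and -1.29 in control (log2 difference 1.28, adjusted p = 0.0593). The nuclear receptor gene Nr1d2 had a log2 difference of -1.68 (adjusted p = 0.0588), the deubiquitinase Usp2 one of -1.92 (0.065), and the repressors Per2, Cry2 and Per1 ones of -1.32, -1.12 and -0.81 (0.133, 0.0969 and 0.18). Clock itself had one of -0.58 (0.173). None of these passed. Hlf, the third relative of the Dbp and Tef family, went against their fall in value: it was at -3.21, -3.20 and -3.59 after DSS and at -4.99, -5.34 and -0.56 in control, with groups that overlapped (log2 difference 0.29 ± 0.96, adjusted p = 0.871). It was well above background on 1 of 3 control arrays, and its difference was -0.39 without control replicate 1, -0.56 without control replicate 2 and -0.88 with normexp background correction.

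**Figure D4:**
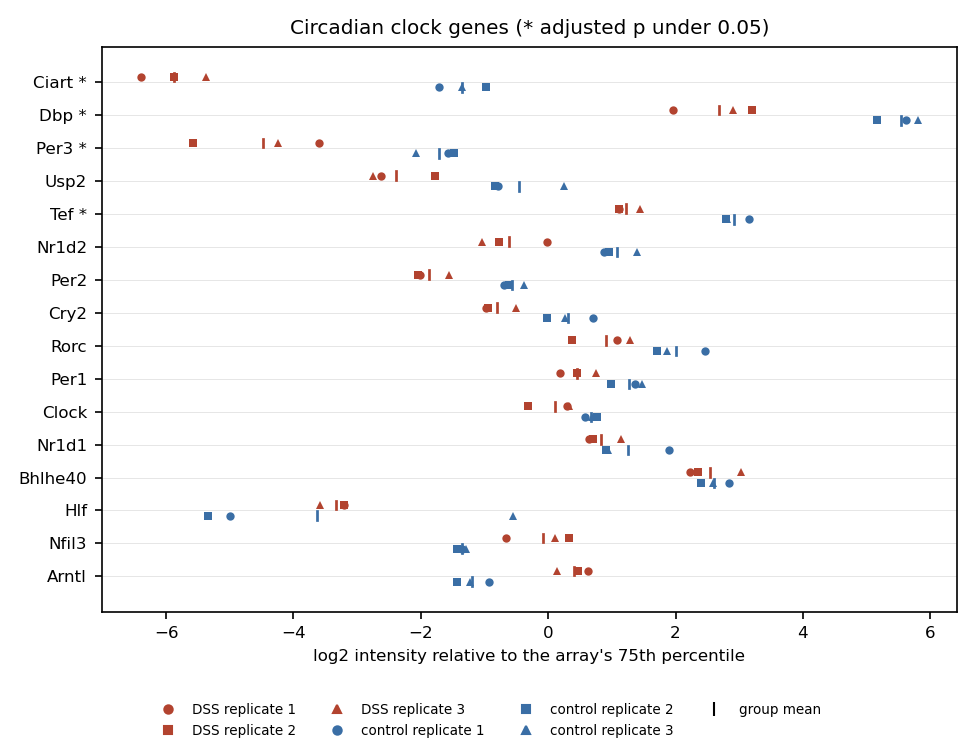
Log2 intensity relative to the array's 75th percentile (x axis) of the 16 circadian clock genes tested (y axis, ordered by difference) on each DSS array (red) and control array (blue); short bars are group means, symbols mark replicates and asterisks the genes with adjusted p under 0.05. Of the 16 genes, 13 have groups that do not overlap, with Ciart, Dbp, Per3 and Tef passing, and Nfil3, Arntl and Hlf have positive differences without passing.

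Of the 4 clock genes that fell, Ciart kept its call in every fit without 1 array. Dbp lost it without control replicate 1 (adjusted p = 0.0524), and Per3 and Tef lost it without DSS replicate 2 or 3 or control replicate 1 or 2 (adjusted p up to 0.132 and 0.105). Without DSS replicate 1 and control replicate 3, 5 of the 16 fell and 3 rose, where 13.2% of all genes fell and 10.3% rose, at a median of -1.11. The rises were Arntl, Nfil3 and Hlf (limma adjusted p = 0.0296, 0.00256 and 0.003). For Hlf the control left out was the only one well above background. Control replicates 1 and 2 read it below their dimmest signal well above background (-3.77 and -3.95), so its rise in that fit rests on background signal. With slide as a block the median was -1.93. On the AOM arrays, Ciart was at -5.13 and -3.83 on one slide and at -2.96 on the slide of the DSS arrays. On the AOM/DSS arrays it was at -6.03 and -5.17 on the former slide and at -5.06 on the slide of the controls. Dbp was at 3.02, 4.15 and 4.36 and at 0.88, 1.18 and 0.71 on the same arrays in that order. The time of day at which each tissue was taken was not tested.

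The stretch before the start of each clock gene and of Cipc was read for sites through which clock factors are known to act. Whether such sites have a part in the falls was not tested. The sites were the E-box CACGTG, bound by Arntl and Clock, the D-box TTATGNAA, bound by Dbp, Tef and Nfil3, and the receptor site AGGTCA, bound by nuclear receptors such as Nr1d2, each searched on both strands; the E-box reads the same on both strands, and the motifs were searched separately, so that matches could overlap. Of 32851 RefSeq promoters, 6.02% hold an E-box, 3.07% a D-box and 14.0% a receptor site in the 250 bases before the start. Promoters were listed for 14 of 17 genes (the 16 tested and Cipc, which was added after its fall was seen), 20 in all since some genes have several starts. Of the 20 promoters, 5 hold an E-box, 2 a D-box and 4 a receptor site, and of the 18 without those of Cipc, 4 hold an E-box. The receptor sites lie before genes that did not pass: Clock, Per1, Nr1d2 and Nfil3. The promoters below are those of the genes that fell and hold a site, read 5′ to 3′ toward the start in RefSeq's GRCm38.p6, with the sites in capitals (E-boxes in the first 4, D-boxes in Per3).
Ciart (chr3:95882229-95882478, minus strand): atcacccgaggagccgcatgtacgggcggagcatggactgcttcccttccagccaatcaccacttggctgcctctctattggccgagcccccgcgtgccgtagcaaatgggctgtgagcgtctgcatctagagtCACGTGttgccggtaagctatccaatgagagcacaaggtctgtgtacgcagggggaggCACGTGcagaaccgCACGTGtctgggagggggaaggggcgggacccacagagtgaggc
Tef, first start (chr15:81802423-81802672, plus strand): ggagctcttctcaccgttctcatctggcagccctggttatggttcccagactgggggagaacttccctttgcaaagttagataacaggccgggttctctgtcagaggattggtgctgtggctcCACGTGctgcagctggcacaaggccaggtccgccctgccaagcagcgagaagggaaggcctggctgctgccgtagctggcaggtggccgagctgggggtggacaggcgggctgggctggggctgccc
Tef, other start (chr15:81811164-81811413, plus strand): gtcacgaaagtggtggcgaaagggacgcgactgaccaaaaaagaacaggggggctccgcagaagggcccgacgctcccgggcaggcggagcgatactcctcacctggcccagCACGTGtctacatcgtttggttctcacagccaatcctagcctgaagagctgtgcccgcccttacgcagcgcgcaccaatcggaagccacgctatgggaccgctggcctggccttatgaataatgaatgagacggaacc
Cipc (chr12:86947093-86947342, plus strand): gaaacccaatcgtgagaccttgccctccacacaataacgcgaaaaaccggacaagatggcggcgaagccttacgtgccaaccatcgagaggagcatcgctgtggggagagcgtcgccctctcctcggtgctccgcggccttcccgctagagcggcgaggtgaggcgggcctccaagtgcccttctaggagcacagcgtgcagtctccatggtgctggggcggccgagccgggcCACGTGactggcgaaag
Per3 (chr4:151044666-151044915, minus strand): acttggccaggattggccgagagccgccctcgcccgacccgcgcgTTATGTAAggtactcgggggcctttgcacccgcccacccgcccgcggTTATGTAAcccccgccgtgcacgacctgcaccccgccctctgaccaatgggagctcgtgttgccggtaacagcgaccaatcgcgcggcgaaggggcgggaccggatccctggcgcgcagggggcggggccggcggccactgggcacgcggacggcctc
Ciart holds 3 E-boxes, 116, 58 and 44 bases before the start, counted to their first base. Tef holds one before each of its 2 listed starts, 127 and 138 bases before them, and Cipc one 17 bases before the first of its 2 starts. Per3 holds 2 D-boxes, 205 and 158 bases before its start, and no E-box. Among the genes that did not pass, Per1 holds an E-box and a D-box before 1 of its 2 starts. Dbp, which fell, has neither motif in this window. A match describes these letters only; binding was not measured.

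Absorptive colonocyte genes were mostly on the low side. Of 21 tested, 2 fell (Slc37a2 and Slc20a1), where 0.298% of all genes fell, none rose and 19 did not pass. The median log2 difference was -0.83, and the groups did not overlap in 10 of 21, against 20.1% of all genes. Slc20a1, a sodium-dependent phosphate importer, was at 3.38, 3.12 and 3.07 after DSS and at 6.16, 5.17 and 4.78 in control, a 4.53-fold fall (limma adjusted p = 0.0313; up to 0.141 without DSS replicate 2 or 3 or control replicate 1 or 2). Xpr1, the phosphate exporter, is in no list and is named after its values were seen; it fell by 1.44 ± 0.20 log2 units, with 1.87, 1.34 and 1.97 after DSS and 3.32, 3.21 and 2.99 in control. The chloride exchanger Slc26a3 was at 3.65, 2.70 and 3.05 after DSS and at 5.97, 4.80 and 5.35 in control, without overlap, and did not pass (log2 difference -2.24 ± 0.93, adjusted p = 0.187). The butyrate transporter Slc5a8 missed the threshold more narrowly, at -1.61 ± 0.34 (adjusted p = 0.06), as did the sulfate transporter Slc26a2, at -1.20 (0.0913).

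The carbonic anhydrases pointed in both directions. Car1, the cytosolic form, was at 5.14, 6.56 and 5.73 after DSS and at 3.54, 3.85 and 4.19 in control, with no overlap and just above the threshold (log2 difference 1.95 ± 0.38, limma adjusted p = 0.0521). The membrane form Car4 had a log2 difference of -0.79 (0.57) and the water channel Aqp8 one of -1.15 (0.467). Without DSS replicate 1 and control replicate 3, 6 of the 21 absorptive genes fell and 2 rose, against 13.2 and 10.3% of all genes, and Car1 was one of the rises (adjusted p = 0.00408).

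The other epithelial lineages showed few calls. Of 15 goblet cell genes none passed (median -0.39), among them the mucin Muc2, at 6.30, 5.63 and 7.16 after DSS and 7.76, 7.77 and 6.76 in control. Cck was the 1 rise among 11 enteroendocrine genes, of which 10 did not pass, where 0.316% of all genes rose. The L-cell hormones Pyy and Gcg were at log2 differences of 0.43 and 0.25, both turning negative with slide as a block (-0.82 and -1.67). Of 9 tuft cell and 4 Paneth cell genes none passed. Of 15 ion channel and transporter genes none passed (median -0.72), among them the potassium channel subunit Kcne3 (-1.08, adjusted p = 0.136). The epithelial markers set the frame for these values: 10 of 10 were tested, none passed, their median log2 difference was 0.04, and Epcam, the adhesion molecule of epithelium, was at 4.92 to 5.62 on the 6 arrays.

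Crypt genes did not pass either. Of 16 Wnt targets and stem cell genes none was called (median 0.11). The stem cell receptor Lgr5 was at -4.93, -3.34 and -6.00 after DSS and at -2.21, -0.72 and -1.94 in control, without overlap (log2 difference -3.13 ± 0.91, limma adjusted p = 0.116). On DSS replicates 1 and 3 it lay below the dimmest signal well above background (-4.27 and -3.80), so this size rests partly on background. Smoc2, another gene of crypt base cells, was at -1.71 (0.115), whereas the Wnt target Axin2 was at -0.09 (0.945). Of 24 cell cycle genes none passed (median 0.53), and 8 rose without DSS replicate 1 and control replicate 3, where 10.3% of all genes rose, such as the mitotic activator Cdc20 (log2 difference 1.78 there and 1.18 with all arrays). Without DSS replicate 1 alone 5 rose and without control replicate 3 alone 1 did, where 1107 and 1059 of all 16445 genes rose. Mki67, a marker of cycling cells, was at 2.38, 1.94 and 1.96 after DSS and at 0.90, 2.07 and 2.85 in control.

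Genes of the repairing epithelium leaned upward. Of 12 tested, 1 rose, where 0.316% of all genes rose, none fell and 11 did not pass. The log2 differences had a median of 1.27, which shrank to 0.7 in the fit that blocks on slide. Msln, which encodes mesothelin, a surface protein of mesothelium and regenerating epithelium, was at 2.02, 2.25 and 2.32 after DSS and at 0.16, 0.04 and 0.50 in control. The arrays of each group lay close together and the groups far apart, a 3.91-fold rise (log2 difference 1.97 ± 0.25, limma adjusted p = 0.0106; 0.0562 without DSS replicate 2). The urokinase receptor Plaur was at 0.75, 2.22 and 2.18 after DSS and at 0.28, 0.12 and 0.26 in control and did not pass (log2 difference 1.5, adjusted p = 0.073). Clu, the secreted chaperone clusterin, was at 1.95 (0.153), the cornified envelope gene Sprr1a at 2.64 (0.112), and Ly6a, a surface antigen of regenerating crypts, at -0.58 (0.186), which was 0.11 with slide as a block. Without DSS replicate 1 and control replicate 3, 6 of the 12 rose, against 10.3% of all genes, Msln, Plaur, Clu and Sprr1a among them.

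Among inflammatory genes no list had a call. Of 22 cytokine and chemokine genes on the array 12 were tested and none passed, with a median log2 difference of 1.26. The others were not well above background on all arrays of either group. Members that entered through the group where they are high can shift this median, so it is not read as a result. Tnf, the tumour necrosis factor gene, was at -0.01, 0.09 and -0.78 after DSS and at -1.29, -2.83 and -2.09 in control, without overlap (log2 difference 1.84 ± 0.36, limma adjusted p = 0.0547), and Il1b, the interleukin made by activated myeloid cells, was at 2.61 (0.121). Of 12 antimicrobial genes none passed, 8 had a log2 difference below 0 and 4 above (median -0.39). Among the 8 was Ang4, a secreted angiogenin, at -0.75. Among the 4, the lectin Reg3g was at 0.15, 3.59 and 1.78 after DSS and at -3.56, -0.73 and -1.51 in control (adjusted p = 0.136). Of 10 oxidant-producing enzyme genes none passed (median 1.24). Duoxa2, the maturation factor of the epithelial oxidase Duox2, was at 2.95, 3.48 and 3.64 after DSS and at 2.04, 2.23 and 1.07 in control (log2 difference 1.58, adjusted p = 0.065), and Cyba, a subunit of phagocyte and epithelial oxidases, was at 1.10 (0.0901).

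2 genes of innate defence outside these lists rose, and are named after their values were seen. Tlr2, the receptor for bacterial lipoproteins, was at 2.63, 2.66 and 2.22 after DSS and at 0.71, 0.88 and 0.58 in control, a 3.44-fold rise (log2 difference 1.78 ± 0.24, limma adjusted p = 0.0139; the call ended without DSS replicate 2 or control replicate 1, with adjusted p up to 0.0703). Gch1, which starts the synthesis of the cofactor of nitric oxide synthases, was at 0.99, 2.21 and 2.12 after DSS and at 0.18, -0.32 and -0.39 in control (log2 difference 1.95 ± 0.34, limma adjusted p = 0.04; up to 0.175 without DSS replicate 2 or 3 or control replicate 1 or 2). The inducible synthase Nos2 was at 1.37 (0.135).

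Markers of other mucosal cells were followed beside these genes. None of the 13 macrophage and monocyte markers passed, but all 13 had a log2 difference above 0 (median 2.21), and without DSS replicate 1 and control replicate 3, 11 of 13 rose, against 10.3% of all genes. Leaving out control replicate 3 alone gave 11 rises and leaving out DSS replicate 1 alone 7, where 1059 and 1107 of all 16445 genes rose. Control replicate 3 had the highest median level of these markers among the controls (1.09, against -0.11 and -1.47). C1qa, a complement subunit of tissue macrophages, was at 2.61, 4.06 and 2.90 after DSS and at 0.73, -1.24 and 2.09 in control. Of 5 neutrophil markers tested none passed. All 5 were well above background on every DSS array and only 1, S100a9, on every control array, so the other 4 entered through the group where they are high and nothing is read from a summary over them. S100a9, a calprotectin subunit abundant in neutrophils, was at 1.43, 4.08 and 0.39 after DSS and at -1.95, -2.39 and -1.88 in control, and was just above the threshold (log2 difference 4.04 ± 0.78, limma adjusted p = 0.0503). The other 5 neutrophil markers on the array were not well above background on all arrays of either group.

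Stromal markers split the controls. All 14 fibroblast markers had a log2 difference above 0 (median 1.72), none passed, and 12 rose without the same pair of arrays, where 10.3% of all genes rose. Their median log2 level was 1.60, 1.88 and 0.87 on the DSS arrays and -0.42, -1.75 and 1.98 on the controls, so that control replicate 3 lay above the DSS arrays and the other controls below. With control replicate 3 alone left out 12 rose, and with DSS replicate 1 alone left out 1 did, where 1059 and 1107 of all 16445 genes rose. The count without the pair thus rests on leaving out the control that was high in these markers. Col1a1, a chain of collagen I, was at 1.86, 2.93 and 2.11 after DSS and at -0.93, -1.08 and 2.18 in control. The 11 endothelial markers had medians of -0.54, -0.26 and -1.32 after DSS, of -3.55 and -2.98 on control replicates 1 and 2 and of -0.56 on control replicate 3 (0 called, and 9 higher without the pair, beside the same 10.3%). Here too 9 were higher without control replicate 3 alone and 1 without DSS replicate 1 alone. The dimmest signal well above background was -3.77 and -3.95 on control replicates 1 and 2. Endothelial markers may thus have entered through the DSS group, so their medians and counts are not read as a result. Of 11 smooth muscle markers none passed and 7 rose without the pair, beside the same 10.3%, while 5 rose without control replicate 3 alone and 2 without DSS replicate 1 alone. Of 12 B and plasma cell markers none passed (median 1.80), and their median was 5.68 with slide as a block. In whole scrapings, more cells of a type and more RNA per cell cannot be told apart, and the part of these cells in the differences above was not tested. Bgn, a matrix proteoglycan, and Capg, an actin-capping protein abundant in macrophages, were among the called genes in no list and are named after their values were seen. Bgn was at 0.65, 1.40 and 1.00 after DSS and at -0.91, -1.30 and -0.10 in control (limma adjusted p = 0.0395). Capg was at 4.29, 5.10 and 5.29 after DSS and at 3.36, 2.29 and 2.97 in control (limma adjusted p = 0.0442).

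**Figure D5:**
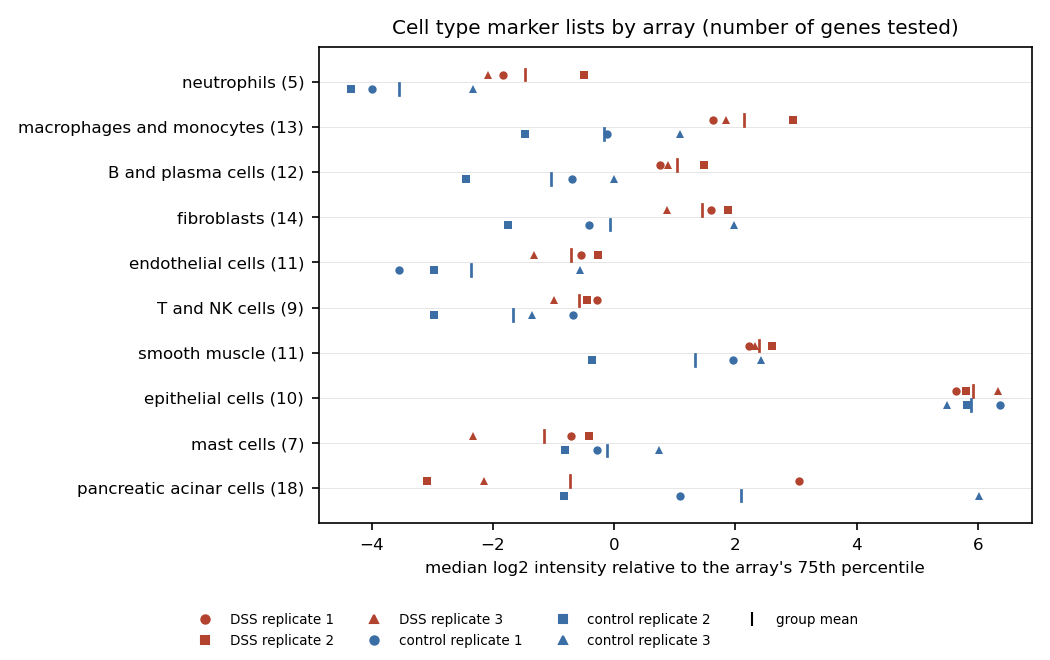
Median log2 intensity relative to the array's 75th percentile (x axis) over the tested markers of each cell type with 5 or more tested (y axis, number in brackets) on each DSS array (red) and control array (blue); short bars are group means and symbols mark replicates. Fibroblast and endothelial markers are low on control replicates 1 and 2 only. Pancreatic acinar markers are highest within their groups on DSS replicate 1 and control replicate 3, and control replicates 1 and 2 lie above DSS replicates 2 and 3.

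Of the 9 T and NK cell, 7 mast cell and 3 red blood cell markers none passed, with medians of 1.18, -0.78 and 0.44. Eosinophil, adipocyte, enteric neuron and squamous markers had 2 to 4 members tested and no call. Of 14 matrix metalloproteinase and remodelling genes on the array 8 were tested and none passed (median 2.04). Without the pair 6 rose, against 10.3% of all genes. Without control replicate 3 alone 6 rose, and without DSS replicate 1 alone 1 did, where 1059 and 1107 of all 16445 genes rose. Mmp3, the fibroblast protease stromelysin, was at -1.87, 1.53 and -0.83 after DSS and at -6.05, -6.22 and -1.19 in control. On control replicates 1 and 2 it lay below the dimmest signal well above background (-3.77 and -3.95). Mmp3 thus entered through the DSS group, as other members may have, so the median and counts are not read as a result. Timp1, an inhibitor of these proteases, was at 1.90 (limma adjusted p = 0.104).

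Of 22 xenobiotic metabolism genes 1 fell, Ugt1a1, where 0.298% of all genes fell, and 21 did not pass. Their median was -0.67, with groups that did not overlap in 11 of 22, against 20.1% of all genes. The drug-metabolising P450 Cyp3a13 was at 2.56, 2.28 and 3.61 after DSS and at 5.27, 4.65 and 4.91 in control (log2 difference -2.12 ± 0.58, limma adjusted p = 0.107), and the drug efflux pump Abcb1a was at -1.26 (0.108). Cyp2c39, a P450 outside the list that is named after its values were seen, was at least 4.88-fold lower. Oxidative phosphorylation genes were close to level: none of 19 passed, their median was -0.01, and the 2 with the smallest p, Uqcrc1 and Ndufs1, were at 0.43 and -0.36. Nothing passed among 18 fatty acid oxidation, 19 cholesterol synthesis, 20 interferon-induced, 7 MHC class II, 18 unfolded protein response, 18 hypoxia and glycolysis, 16 p53 target, 20 immediate early and heat shock, 15 tight junction, 11 posterior identity and 8 anterior gut genes. Their medians lay between -0.22 and 0.51. Of 12 prostaglandin genes none passed: the receptor Ptger3 was at -1.37 (0.108) and the degrading enzyme Hpgd at -1.16 (0.219). The bile acid transporter Slc10a2 had the largest size among the anterior genes, at -2.40 (0.0677), with -0.25, -2.26 and -1.18 after DSS and 1.70, 0.47 and 1.34 in control.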

How the data were processed

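RNA was measured on 1-colour Agilent mouse arrays. The deposited scanner files give each spot's intensity; the software was Feature Extraction, version 10.7 per the submitters' processing notes and 10.7.3.1 in the headers. Its processed signal was used, which is not normalized between arrays. The deposited series matrix holds log2 values that the authors quantile normalized, as its equal sorted columns show. RNA was column-purified and amplified with Cy3 label, per the labels' protocols. Array depth has no count; 3 arrays per group limit the precision.

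Processed intensities of 41174 non-control probes were taken to log2, outlier-flagged spots left out, spots of a probe averaged, and each array's 75th percentile subtracted. Probes well above background on all 3 DSS or all 3 control arrays were kept (21812), and for each gene its brightest kept probe, averaged across 12 arrays, stood in. This left 16445 genes, 12298 with a symbol, named through RefSeq accessions. Means of the 4 groups were fitted with limma 3.58.1 in R 4.3.3 (8 residual and 2.75 prior degrees of freedom), tested on simulated data, and adjusted by Benjamini-Hochberg over all genes. For a gene dim on every array of a group, "at least" sets that group at each array's lowest signal well above background, or at its own if higher.

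The 43 gene lists (28 of programmes, 15 of cell types), the genes compared and the alternatives were chosen with earlier results of these data known. Named genes are the 15 largest changes per direction among called, non-overlapping, unsaturated genes with a symbol with signal above background on each array of the higher-lying group, up to 4 called members of a list or 2 with the smallest p, and a panel of 43 genes; not all are printed, and genes outside this rule are marked as named after their values were seen. Alternatives covered background correction, scaling, filters, probe choice, slide, replicate number and arrays left out.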

Additional observations from a re-analysis of the deposited data

How the results depend on the processing

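Against 101 genes called, 146 were called with quantile normalization, 146 with the authors' series matrix values and 94 with the mean of a gene's probes. The count was 2 with normexp background correction, 67 with median scaling, 167 with probes that carry a symbol only, 39 with no filter on dim probes (14 higher and 25 lower, so a 35.9% higher share against 51.5%), 53 with signal well above background on all 6 arrays, 42 with the 6 arrays alone in the fit, and 0 with slide as a block (limma, 1130 at an unadjusted p under 0.05). Leaving out 1 array gave 15 to 3091, and leaving out DSS replicate 1 and control replicate 3 together gave 3874. Without 1 array, the higher share ran from 33.3 to 79.0%. No alternative turned more than 3 of the 101 genes, and normexp kept the sign of 98. The 101 were called on these same arrays, and of all genes 80.9 to 100.0% kept their sign under an alternative.

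The replicate block, a fit with replicate number as a term, called 67 genes, 54 of the 101 among them. Arrays of the same number deviated from their group means with correlations of 0.075, -0.277 and -0.294 across genes, so the numbers were not taken to pair arrays.

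For 53 called genes followed one by one, 579 values under an alternative stayed called in the same direction, 348 lost the call, and 2210408I21Rik turned to -0.13 with another probe on the filter for all 6 arrays. Among 63 followed genes that did not pass, 109 values passed under an alternative and 15 turned sign. With slide as a block these were Ly6a (0.11), Pyy (-0.82), Gcg (-1.67), Epcam (-0.38) and Fos (-0.70), and with normexp Hlf (-0.88). Without 1 array the others ran from -0.56 to 1.83 for Hlf, -0.09 to 0.64 for Gcg, -0.35 to 0.38 for Axin2, -0.37 to 0.61 for Mki67 and -0.11 to 0.30 for Epcam. The causes were not tested. Of 43 list medians, 50 values moved by more than the spread between arrays and 724 did not. Signal over background limits genes dim in one group to a lower bound.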

Other observations

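Among the 101 genes called, 91 were in no list and not in the panel. Some of them share a textbook role, and they are grouped here after their values were seen, with no test of the group. Besides Sptssb, genes of lipid handling that rose were Mogat2, an acyltransferase of dietary fat absorption (-1.25, -0.31 and -0.85 after DSS against -3.43, -2.24 and -3.22 in control, limma adjusted p = 0.0228), Spns2, an exporter of sphingosine 1-phosphate (log2 difference 2.21), Acsbg1, an acyl-CoA synthetase (2.06), and Pld2, a phospholipase (2.11). Chpt1, which completes phosphatidylcholine synthesis, fell by 0.90 log2 units, with 1.21, 1.13 and 1.05 after DSS against 1.98, 2.06 and 2.05 in control. Neu3, a sialidase of gangliosides, fell by 1.80.

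Other called genes have varied roles. Egf, the epidermal growth factor gene, was at -3.39, -3.95 and -3.97 after DSS and at -2.06, -1.49 and -1.83 in control (limma adjusted p = 0.00897), and was called without any 1 of the 6 arrays. Bmp3, a ligand of the bone morphogenetic protein family, was at -2.66, -2.63 and -2.66 after DSS and at -0.14, -1.32 and -0.91 in control (adjusted p = 0.0396). Hkdc1, a hexokinase, fell by 1.90 and Maob, a monoamine oxidase, by 1.34. Pmepa1, a target and inhibitor of TGF-beta signalling, rose by 2.42, and Tspo, a mitochondrial cholesterol-binding protein, by 1.38.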
